A study of Mus musculus with 10 samples.

Results

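Mitochondrial ribosomal protein genes were described here in ribosome-bound RNA of the mouse ventral tegmental area, taken from its dopaminergic neurons after acute restraint and without it. The members are the genes of the deposited count table whose mouse symbol is Mrpl or Mrps followed by a number and at most 1 letter, with at least 10 counts in 5 or more of the 10 libraries. This rule took 77 of the 56691 genes of the table. Of these, 48 are named Mrpl and 29 Mrps. One further gene fitted the name and failed the count minimum: Mrpl53 had 0 counts in all 10 libraries. In the annotation used for counting, 88% of the exon bases of Mrpl53 are shared with Gm42688 and Ccdc142os, and reads that overlap more than one gene were not assigned. The member with the fewest counts, Mrpl33, had 298 to 664 per library, so no member lies near the count minimum.

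Both groups were male C57BL/6 mice of wild-type genotype with the ribosomal construct labelled NBL10-HA in dopaminergic neurons. The tested mice were restrained for 30 min, and the control mice were not; each group has 5 libraries. The labels give neither the age of the mice nor the promoter or vector behind the construct, and they do not say whether each library comes from a separate mouse, so the p-values measure the spread between these libraries. Totals ran from 56082358 to 86584968 counts. Dopamine neuron genes were present, with summed levels of 10 markers of 2115 to 2912 CPM after restraint and 1899 to 2599 CPM in controls, but so were 7 astrocyte markers, at 4232 to 5302 and 3720 to 4307 CPM, so the RNA is not that of dopaminergic neurons alone. Summed markers of oligodendrocytes (7 genes) stood at 1497 to 2071 and 1573 to 1922 CPM, of microglia (6) at 14.2 to 20.1 and 13.1 to 21.8 CPM, of GABA neurons (3) at 901 to 1261 and 866 to 1224 CPM, of glutamate neurons (2) at 340 to 478 and 395 to 431 CPM, and of vascular cells (6) at 12.3 to 19.0 and 9.63 to 14.5 CPM after restraint and in controls. CPM, the usual count scaled to library size, were normalized by TMM, a correction of library sizes for composition. Restraint 1 stood apart on the first principal component of all genes (score 92.1, against -19.2 to 4.08 for the other libraries).

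Mitochondria keep their own ribosome, the mitoribosome, which translates the few proteins encoded in mitochondrial DNA, all of them subunits of the respiratory chain and the ATP synthase. Its RNA comes from mitochondrial DNA, and its proteins are encoded in the nucleus, made in the cytosol and imported. Many of them descend from bacterial ribosomal proteins, and others were added during the evolution of mitochondria and have no bacterial counterpart. Neurons of the midbrain dopamine system have high energy demands, and the supply of respiratory chain subunits depends on this ribosome. By the universal nomenclature of ribosomal proteins, 50 members belong to the large subunit and 26 to the small subunit. Mrps18a and Mrps30 are counted with the large subunit despite their names. The product of Mrps36 is now known as Kgd4, a subunit of the 2-oxoglutarate dehydrogenase complex rather than of the mitoribosome, and it was kept as a member by its name.

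Some start regions of these genes hold short sequence motifs that the choice of members did not use. For 68 of the 77 members a window from 250 bases before to 50 bases after a RefSeq transcript start was at hand (GRCm38.p6, first window listed per gene). CCGGAAG, a core motif of the ETS family, which includes GABPA, a known activator of nuclear genes for mitochondrial proteins, was found on either strand in 24 windows (35.3%), against 15.8% of the windows of 12698 genes tested for expression and 11.9% of those of 17491 protein-coding genes. AAGATGGC, a motif of YY1, was in 12 member windows (17.6%), against 4.06% of those of the genes tested. The motif of NRF1, a palindrome of 10 bases, was in 3 (4.41%), against 1.81%. At least one of the 3 motifs was in 35 member windows (51.5%), against 20.4%, and 33 held none of them. No matches of different motifs overlapped in a member window, and 3 windows held both the ETS and the YY1 motif. The median GC content of the windows was 58.2% for members and 60.3% for the genes tested. A match of letters is a description and not a binding site. The windows below, from 120 bases before to 20 after the start, are those of the 6 members with the smallest p in the restraint comparison that hold a motif within this stretch. They are shown so that the motif and its distance to the start can be seen in single genes, with motif matches in capitals. The ETS motif also appears as its reverse complement, CTTCCGG.
Mrps16 (GRCm38, chr14:20393471-20393610, minus strand): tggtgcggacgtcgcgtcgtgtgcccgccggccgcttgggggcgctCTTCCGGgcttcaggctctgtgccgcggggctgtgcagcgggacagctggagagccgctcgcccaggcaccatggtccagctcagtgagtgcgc
Mrpl27 (GRCm38, chr11:94653671-94653810, plus strand): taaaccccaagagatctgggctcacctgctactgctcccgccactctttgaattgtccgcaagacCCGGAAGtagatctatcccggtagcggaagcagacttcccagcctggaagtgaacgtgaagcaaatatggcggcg
Mrpl52 (GRCm38, chr14:54426789-54426928, plus strand): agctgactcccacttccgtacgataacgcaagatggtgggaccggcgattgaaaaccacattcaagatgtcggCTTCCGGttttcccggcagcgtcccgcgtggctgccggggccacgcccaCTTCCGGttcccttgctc
Mrpl57 (GRCm38, chr14:57826119-57826258, plus strand): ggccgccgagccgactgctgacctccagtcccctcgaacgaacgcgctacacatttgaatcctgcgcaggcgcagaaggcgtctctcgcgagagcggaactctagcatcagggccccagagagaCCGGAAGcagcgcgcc
Mrpl32 (GRCm38, chr13:14613018-14613157, minus strand): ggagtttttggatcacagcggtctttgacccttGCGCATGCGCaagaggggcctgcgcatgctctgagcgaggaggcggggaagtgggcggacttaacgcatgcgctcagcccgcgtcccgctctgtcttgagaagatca
Mrpl43 (GRCm38, chr19:45006423-45006562, minus strand): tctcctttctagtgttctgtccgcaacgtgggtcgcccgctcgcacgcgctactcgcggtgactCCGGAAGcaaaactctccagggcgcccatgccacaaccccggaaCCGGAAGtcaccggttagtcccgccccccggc

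The levels of the members spread widely, and their order was nearly the same in both groups. Levels of different genes are compared per kilobase (kb) of exon length, which here is the union of all annotated exons, so a long exon that few transcripts use lowers a gene's value. The median over the 77 members was 17.0 CPM per kb after restraint and 18.3 CPM per kb in controls, and 76 of the 77 lay above the control median of all genes tested, 2.83 CPM per kb. The Spearman correlation of the 2 groups' levels over the 77 genes was 0.989, a description over genes that share their libraries, and no member moved by more than 8 places.

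Highest was Mrpl41, a mitochondria-specific protein of the large subunit, with 92.3 ± 12.7 CPM per kb after restraint and 93.6 ± 13.4 CPM per kb in control libraries (SD, n = 5 each). Next came Mrpl12, the protein of the stalk that recruits translation factors, with 89.8 ± 14.2 and 87.4 ± 7.94 CPM per kb, and Mrps12, a protein of the decoding centre, with 82.2 ± 10.8 and 85.2 ± 11 CPM per kb. These 3 do not differ from each other beyond their spread. At the low end Mrpl33 had 0.865 ± 0.200 CPM per kb after restraint and 0.975 ± 0.125 in controls, below Mrps30 (4.32 ± 0.322 and 3.72 ± 0.637) and Mrps35 (4.35 ± 0.429 and 4.00 ± 0.338). Mrps30 and Mrps35 do not differ beyond their spread, while Mrpl33 lies well apart from both. Exon lengths are 7326 bases for Mrpl33, 6666 for Mrps30 and 8631, the longest of the members, for Mrps35, against 888 for Mrpl41. The control level of the highest member was 95.9 times that of the lowest. Large subunit members had a control median of 21.2 CPM per kb and small subunit members one of 12.8 CPM per kb.

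**Figure D1:**
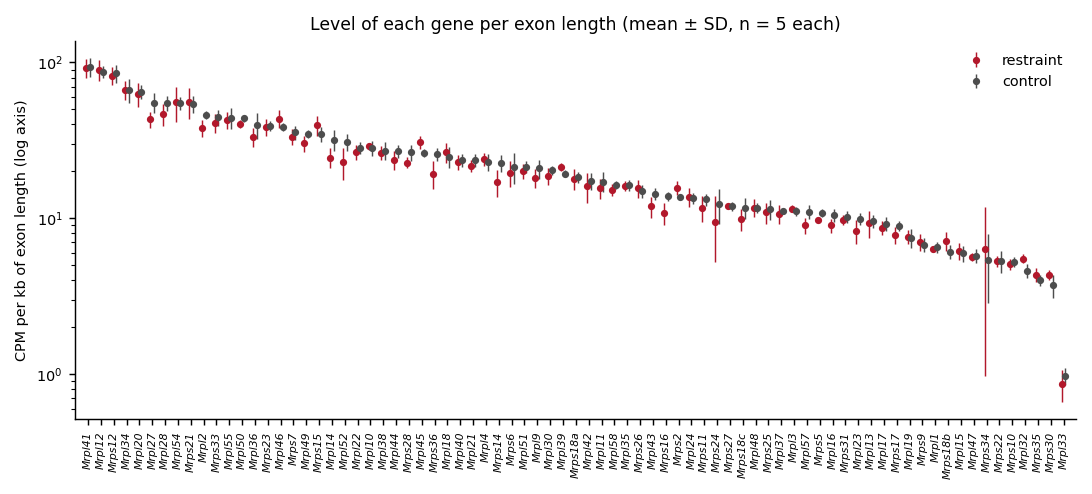
Level of each of the 77 genes, as CPM per kb of exon length on a log axis, ordered by the control level; points are means and bars SD of 5 restraint (red) and 5 control (grey) libraries. The groups follow the same order, Mrpl33 lies alone at the bottom, and Mrps34 has the widest bars.

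The question for the restraint comparison was whether the ribosome-bound RNA for these proteins differs after 30 min of restraint. None of the 10 libraries is of total RNA, so the amount of an RNA and its binding to ribosomes cannot be told apart. No member passed the test. The median log2 fold change, restraint over control, was -0.05 over the 77 members (0.965 of the control level), against -0.00 over the 18440 genes tested, and 53 members had a negative and 24 a positive value (68.8% negative, against 50.4% of all genes tested). With edgeR's quasi-likelihood test and Benjamini-Hochberg adjustment over all genes tested, 0 members were higher and 0 lower at an adjusted p under 0.05, where 0.00542% and 0.0163% of all genes passed. At an unadjusted p under 0.05, 13 members were lower (16.9%, against 6.04% of all genes) and 3 higher (3.9%, against 5.64%). DESeq2 also passed 0 members, where it called 0.634% of all genes higher and 1% lower. Several lower members were close to its threshold of 0.05. The 6 lower members with the smallest edgeR p had DESeq2 adjusted p of 0.0511 (Mrps14) to 0.0801 (Mrpl52). For the 4 higher ones these were 0.158 (Mrpl45) to 0.385 (Mrpl46). The libraries of the 2 groups overlapped for all 77 members, while among all genes 1.25% lay wholly higher and 1.36% wholly lower after restraint. In 19 of the 77 members each of the 5 restraint libraries lay below the control median, which was so for 11.2% of all genes tested. In 5 of the 77 each lay above it, against 11% of all genes tested. Marker genes of several cell types had higher values after restraint, and none passed either. Dopamine neuron markers had a median log2 fold change of 0.26 (8 of 10 positive; 5 higher and 0 lower at an unadjusted p under 0.05). Of them, En1 had 55.1 ± 4.89 CPM after restraint and 37.2 ± 5.91 CPM in control libraries, without overlap (0.57 ± 0.11, edgeR adjusted p = 0.0662). Astrocyte markers had a median of 0.19 (5 of 7 positive; 1 higher and 0 lower), with Gfap at 2471 ± 316 CPM after restraint and 1919 ± 121 CPM in control libraries and no overlap (0.37 ± 0.09, edgeR adjusted p = 0.118). Vascular markers, all at low levels, had a median of 0.35 (5 of 6 positive; 3 higher and 0 lower). Microglia markers had a median of 0.12, oligodendrocyte markers 0.01, GABA neuron markers -0.02 and glutamate neuron markers, only 2 genes, 0.36. The part of these differences in the members' values was not tested. In these bulk libraries fewer cells of a type and less RNA per cell cannot be told apart.

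**Figure D2:**
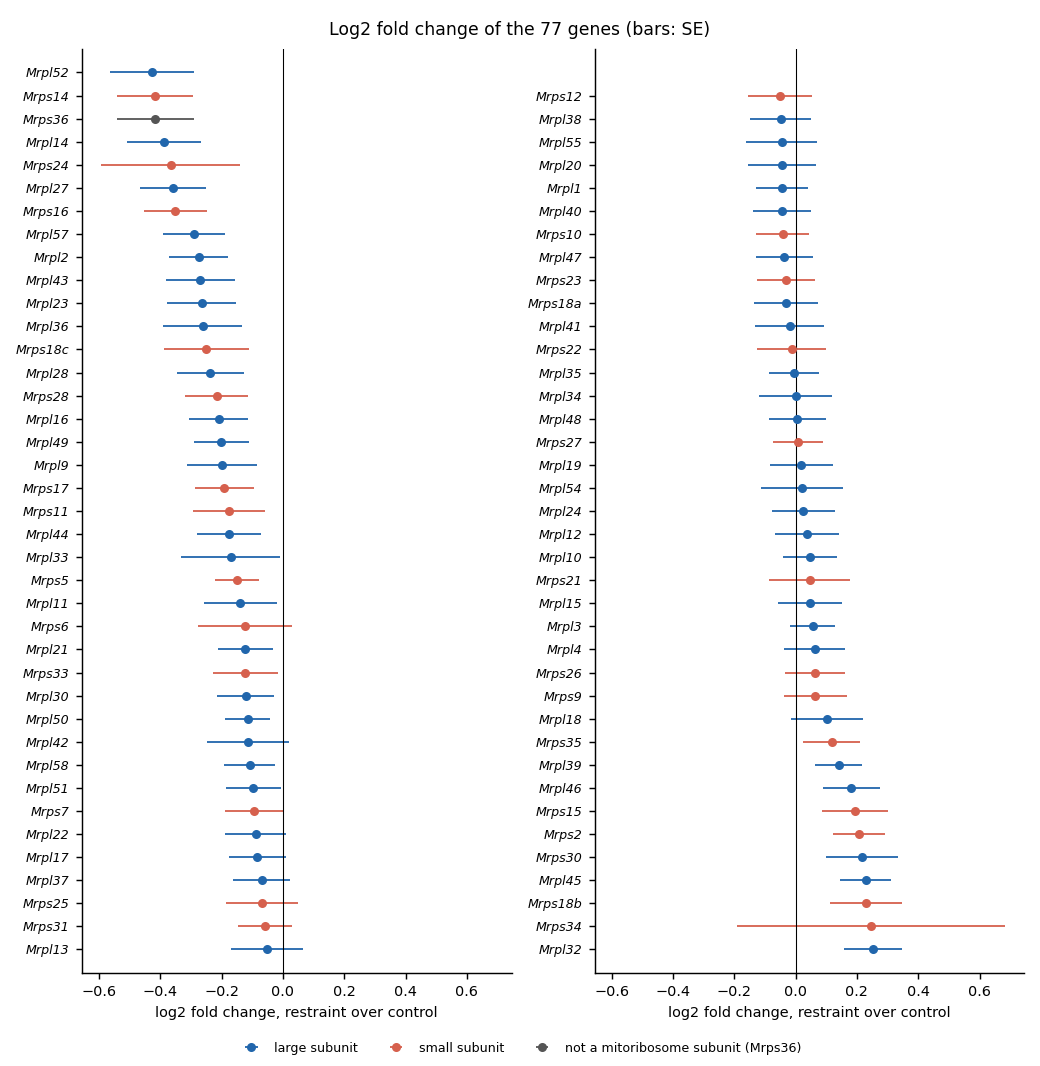
Log2 fold change, restraint over control, of each of the 77 genes with its standard error, in rising order (left column, then right), coloured by ribosomal subunit. Values run from -0.43 for Mrpl52 to 0.25 for Mrpl32, and none passed the test over all genes.

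Large subunit members had a median log2 fold change of -0.05 (35 of 50 negative; 10 lower and 2 higher at an unadjusted p under 0.05). Small subunit members had the same median, -0.05 (17 of 26 negative; 2 lower and 1 higher). Proteins with a bacterial homologue had a median of -0.09 (33 of 46 negative) and mitochondria-specific proteins one of -0.04 (19 of 30 negative). Within the small subunit these medians were -0.14 over 16 genes and -0.00 over 10, and within the large subunit -0.05 over 30 and -0.06 over 20. No test of these class differences was made, and no class held a gene that passed.

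Among lower members with the smallest p, Mrps16 came first. It encodes the homologue of bacterial ribosomal protein S16 and lies on chromosome 14 (20439372 to 20443702, GRCm39, as are all gene positions below). Mrps16 had 29.6, 29.3, 30.3, 26.8 and 39.7 CPM in restraint libraries 1 to 5, against 40.4, 37.0, 42.5, 41.8 and 36.8 CPM in control libraries 1 to 5. Restraint 5 lay within the control range and the other 4 restraint libraries lay below it. The log2 fold change was -0.35 ± 0.10 (SE), with an edgeR adjusted p of 0.190. Mrps14, the homologue of S14 in the head of the small subunit (chromosome 1, 160022785 to 160029740), had 49.7, 56.5, 52.8, 44.5 and 73.4 CPM after restraint, against 79.2, 61.5, 85.3, 76.7 and 66.9 CPM in controls. Here too restraint 5 was the 1 restraint library within the control range. Its log2 fold change was -0.42 ± 0.12 (edgeR adjusted p = 0.191). When restraint 5, the highest restraint library for both, was left out, both passed. Mrps16 stood at -0.46 (edgeR adjusted p = 0.0282) and Mrps14 at -0.55 (edgeR adjusted p = 0.0333). These were 2 of the 77 members and 2 of the 83 genes then called lower, and the share of all genes is not given here. No member was called when any other library was left out.

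Mrpl27, whose bacterial homologue reaches towards the peptidyl transferase centre (chromosome 11, 94544593 to 94550915), had 40.6, 45.4, 37.7, 39.1 and 49.4 CPM after restraint, against 62.2, 44.6, 62.1, 54.8 and 48.2 CPM in controls. Restraint 2 and 5 lay within the control range. Its log2 fold change was -0.36 ± 0.11 (edgeR adjusted p = 0.195). Mrpl14, a large subunit protein at the interface between the subunits, stood at 21.4, 24.6, 28.2, 19.2 and 22.8 CPM in the restraint libraries, against 26.0, 26.3, 37.0, 33.2 and 29.3 CPM in the controls. Restraint 3 alone lay within the control range. The log2 fold change of Mrpl14 was -0.39 ± 0.12 (edgeR adjusted p = 0.211), and 11.2% of its exon bases are shared with Tmem63b on the opposite strand. Mrpl52, a mitochondria-specific protein, had the most negative log2 fold change of the members, -0.43 ± 0.14 (edgeR adjusted p = 0.219). Its levels were 23.9, 34.4, 26.3, 18.0 and 25.2 CPM after restraint, against 32.8, 29.4, 40.8, 34.9 and 33.8 CPM in controls. Restraint 2 lay inside the control range and the other 4 restraint libraries below it. Mrps36, the dehydrogenase subunit named above, had 17.9, 30.7, 25.5, 21.9 and 27.2 CPM after restraint, against 30.1, 31.5, 36.0, 36.4 and 30.2 CPM in controls, with restraint 2 inside the control range (log2 fold change -0.42 ± 0.12, edgeR adjusted p = 0.194).

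Of the higher members, Mrpl45 had the smallest p. Its protein lies at the exit of the peptide tunnel and holds the mitoribosome to the inner membrane. Mrpl45 had 73.1, 90.9, 82.5, 71.2 and 81.4 CPM in restraint libraries 1 to 5, against 66.2, 62.7, 67.1, 71.0 and 73.5 CPM in control libraries 1 to 5. Restraint 1 and 4 lay within the control range. The log2 fold change was 0.23 ± 0.08 (edgeR adjusted p = 0.283). Mrpl32, which is cut by the m-AAA protease of the inner membrane before it joins the ribosome, had 28.5, 28.1, 29.6, 25.4 and 25.6 CPM after restraint, against 23.2, 19.3, 25.7, 24.1 and 22.9 CPM in controls. Restraint 4 and 5 were just below the highest control. This is the highest log2 fold change of the members, 0.25 ± 0.09 (edgeR adjusted p = 0.285). Mrps2, the homologue of bacterial S2, stood at 43.4, 45.4, 46.2, 53.3 and 41.5 CPM in the restraint libraries, against 37.9, 40.1, 42.6, 39.6 and 38.7 CPM in the controls. Only restraint 5 lay within the control range, and the log2 fold change was 0.21 ± 0.08 (edgeR adjusted p = 0.338). Mrpl46, a mitochondria-specific protein, had 56, 70.2, 69.5, 52.4 and 60.7 CPM after restraint, against 51.3, 51.1, 54.8, 56.3 and 58.7 CPM in controls, with restraint 1 and 4 inside the control range (0.18 ± 0.09, edgeR adjusted p = 0.469).

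**Figure D3:**
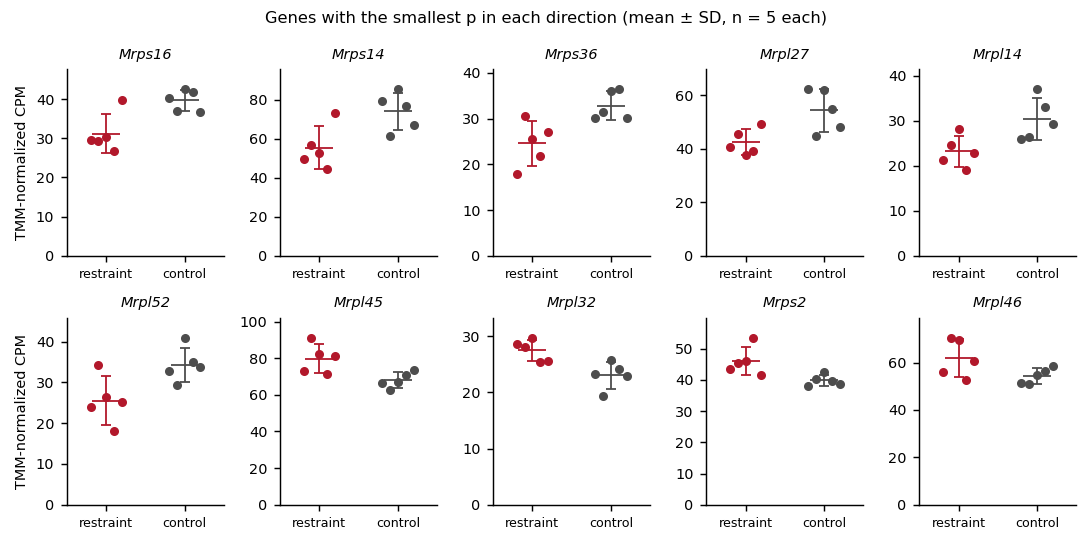
TMM-normalized CPM of the 6 lower and 4 higher members with the smallest p, 1 point per library, with mean and SD (n = 5 each), restraint in red and control in grey; each axis starts at 0. The groups overlap in every panel, and restraint 5, the rightmost red point, is the high one in Mrps16 and Mrps14.

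Several members have distinct roles and none of these passed. Mrps18a, Mrps18b and Mrps18c are 3 paralogues related to bacterial S18 that sit at different places in the ribosome. In the classes above, which follow the nomenclature, only Mrps18c counts as a bacterial homologue. Mrps18a and Mrps18b are counted there as mitochondria-specific. Mrps18a had 51.0 to 79.4 CPM after restraint and 59.7 to 73.3 CPM in controls (log2 fold change -0.03 ± 0.10). Mrps18b had 13.1 to 18.5 CPM and 10.9 to 14.2 CPM (0.23 ± 0.12), and Mrps18c 8.58 to 12.6 CPM and 10.6 to 15 CPM (-0.25 ± 0.14). The 2 less abundant paralogues thus have values of opposite sign, with edgeR adjusted p of 0.474 and 0.517. Mrpl58, a peptidyl-tRNA hydrolase built into the large subunit that can free stalled peptides, stood at 44.4 to 54.9 CPM after restraint and 50.5 to 57.9 CPM in controls (-0.11 ± 0.08). For the stalk, Mrpl12 had 107 to 164 CPM after restraint and 117 to 147 CPM in controls (0.04 ± 0.10), and Mrpl11, at the stalk base, 38.9 to 59.4 CPM and 42.0 to 62.9 CPM (-0.14 ± 0.12). Mrps30 had 25 to 30.3 CPM after restraint and 17.4 to 27.7 CPM in controls (0.22 ± 0.12). Mrps6, which shares 19.9% of its exon bases with Slc5a3 and Gm49711, had 22.3 to 36.3 CPM and 22.1 to 40.0 CPM (-0.12 ± 0.15). Mrpl34, with 607 bases the shortest member, stood at 35.9 to 47.7 CPM after restraint and 32.7 to 51.5 CPM in controls (-0.00 ± 0.12).

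Another annotated gene overlaps exon bases of 32 of the 77 members, and 2 of these, named after their values were seen, have the 2 highest standard errors of the members. Mrps34, with 77.8% of its exon bases shared with Mapk8ip3 on the opposite strand and with Nme3, had 3.71 to 32.1 CPM after restraint and 5.30 to 16.2 CPM in controls, with a standard error of 0.44 against a median of 0.10 over the members. Mrps24, which shares 15.4% with Urgcp, had 25.1 CPM in restraint 5 and 9.69 to 12.4 CPM in the 4 libraries restraint 1 to 4, against 13.4 to 25.7 CPM in controls. A high share did not always go with a high standard error. The highest shares after Mrps34 were those of Mrps25 (69.8%), Mrpl19 (36%) and Mrpl43 (33.4%), with standard errors of 0.12, 0.10 and 0.11. Members that share no exon bases had a median log2 fold change of -0.05 (34 of 45 negative) and those that do one of -0.08 (19 of 32 negative).

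The members' median level varied between libraries, and the low and high libraries were found in both groups. A library's member level is the median over the 77 genes of the log2 CPM relative to each gene's mean over all libraries. It was -0.13, 0.14, -0.02, -0.24 and 0.05 in restraint libraries 1 to 5, against 0.04, -0.13, 0.14, 0.07 and 0.07 in control libraries 1 to 5. The restraint libraries averaged -0.04 ± 0.15 and the controls 0.04 ± 0.10 (SD, n = 5 each), so the difference is smaller than the spread within either group. Restraint 4 held the lowest value of the 10 libraries for 32 members, control 2 for 18 and restraint 1 for 13. Control 3 held the highest value for 24 members, restraint 2 for 19 and control 5 for 12. Such counts were not made over all genes, so whether they are particular to the members was not tested. Members' summed levels ran from 3267 to 4166 CPM after restraint and from 3484 to 4182 CPM in controls.

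The same libraries stood out in how counts depended on exon length in other genes. This length slope is the slope of log2 CPM, relative to each gene's mean, on the log2 of exon length, taken over the 8475 non-members whose mean log2 CPM exceeded 4. It was 0.0669, -0.0675, 0.0120, 0.0965 and -0.0461 log2 units per doubling of length in restraint libraries 1 to 5, against -0.00242, 0.0657, -0.0702, -0.0271 and -0.0280 in control libraries 1 to 5. The 3 libraries with the most positive slope, restraint 4, restraint 1 and control 2, are the 3 with the lowest member level, and the 2 with the most negative slope, control 3 and restraint 2, are the 2 with the highest. After each library's length trend in the other genes was subtracted, member levels were -0.06, 0.05, -0.02, -0.19 and 0.01 after restraint, against 0.02, -0.10, 0.08, 0.04 and 0.03 in controls. They spread less, with SD of 0.09 and 0.07, and the same 3 libraries remained lowest. The share of even counts among counts of 1 to 30, a sign of both mates being counted, was 80.0 to 84.8% after restraint and 76.8 to 79.8% in controls. Its part in these results was not tested.

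**Figure D4:**
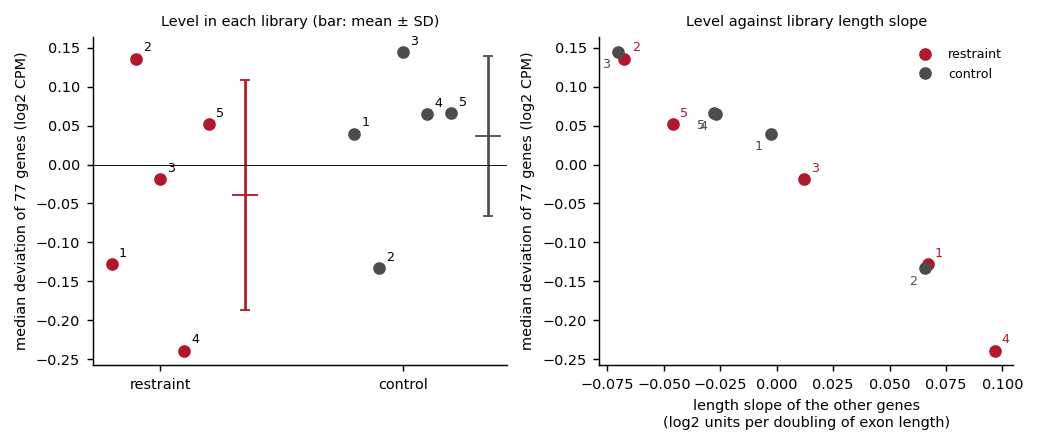
Median deviation of the 77 genes (log2 CPM relative to each gene's mean over 10 libraries) in each numbered library, by group with mean and SD (left) and against the length slope of the other genes (right); restraint red, control grey. Levels fall as the slope rises, and both groups lie along the same course.

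Exon length also ordered the fold changes, in members as in other genes. Members under 1200 bases had a median log2 fold change of -0.15 (12 of 14 negative), against -0.14 over all 1719 genes tested of that length (63.6% negative). Over the 204 genes of that length with a mean log2 CPM above 4, closer in level to the members, the median was -0.17 (74.5% negative), and 33.8% were lower at an unadjusted p under 0.05, against 28.6% of the short members. Members of 1200 to 2000 bases had a median of -0.08 (11 of 16 negative), against -0.02 over 2105 genes. Members over 2000 bases had a median of -0.05 (30 of 47 negative), against 0.01 over 14616 genes. Relative to the trend of log2 fold change on length in all genes, the members' median was -0.05, and 48 of 77 lay below the trend. The Spearman correlation of log2 fold change with exon length was 0.231 over the 77 members and 0.0952 over all genes tested, both over genes that share their libraries.

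With each library's length trend removed in the fit, the members' median was -0.05 (48 of 77 negative, against 49.3% of all genes), and 0 members passed. That fit called 0.108% of all genes higher and 0.26% lower. At an unadjusted p under 0.05, 13 members were lower (16.9%, against 6.3% of all genes) and 8 higher (10.4%, against 6.6%). Short members changed most by this step. The median of the 14 members under 1200 bases became -0.00. Mrpl27 stood at -0.23 ± 0.09 and Mrpl14 at -0.25 ± 0.10, while the longer Mrps14 (3258 bases) and Mrps16 (2875 bases) kept values of -0.42 ± 0.12 and -0.35 ± 0.10. Mrpl41 turned to 0.12 ± 0.09, Mrps12 to 0.06 ± 0.08 and Mrpl34 to 0.21, none of them called.

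**Figure D5:**
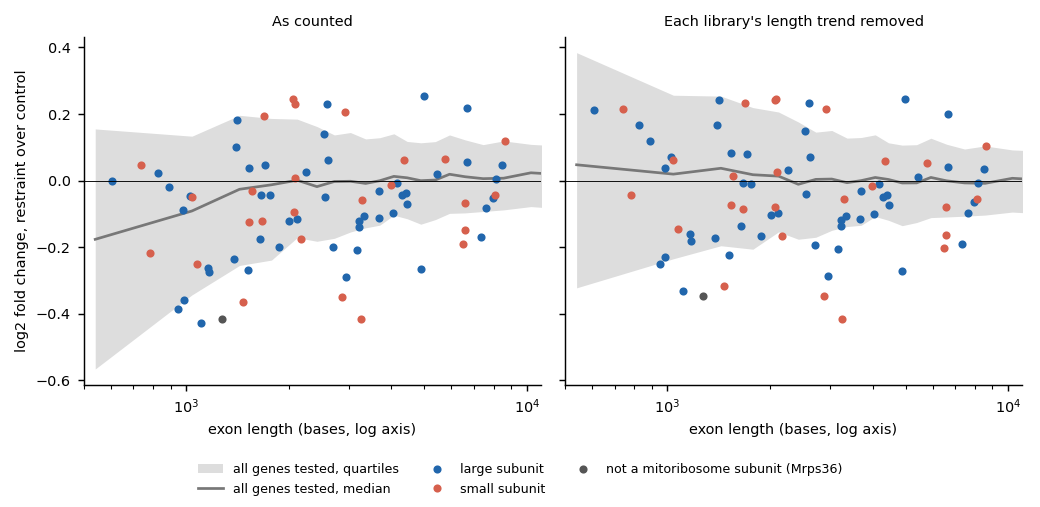
Log2 fold change, restraint over control, of the 77 genes (points, by subunit) against exon length on a log axis, as counted (left) and with each library's length trend removed (right); the grey line and band are the median and quartiles of all 18440 genes tested in 20 bins of length. As counted, the line dips for short genes and the short members lie around it; after removal the line lies near 0 and the members scatter on both sides of it.

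Many members start close to a gene on the other strand. Such a start lay within 1000 bases for 36 of 77 members (46.8%), against 20.7% of all genes tested. One of these 35 pairs joins members: Mrpl46 and Mrps11 on chromosome 7 share 173 exon bases at their starts, and their log2 fold changes were 0.18 ± 0.09 and -0.18 ± 0.12. Mrps12 is paired with Sars2, which encodes the mitochondrial seryl-tRNA synthetase, at 172 bases, with -0.05 ± 0.11 and -0.10 ± 0.09. Mrpl32 lies 75 bases from Psma2, a proteasome subunit gene, with 0.25 ± 0.09 and -0.18 ± 0.09. Mrpl49 lies 59 bases from Fau, the gene of a protein of the cytosolic ribosome, with -0.20 ± 0.09 and -0.45 ± 0.11. Neither partner in these pairs passed. Members whose window held the ETS motif had a median log2 fold change of -0.09 (18 of 24 negative) and those without it one of -0.07 (32 of 44 negative). With the YY1 motif the median was -0.08 (10 of 12 negative) and without it also -0.08 (40 of 56 negative). The 3 members with the NRF1 motif had a median of 0.14 (1 of 3 negative), against -0.08 (49 of 65 negative) without it.

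Other genes of mitochondrial translation gave no gene that passed in either direction. The 5 mitoribosome subunits with other names had a median log2 fold change of -0.10 (3 of 5 negative). Chchd1, a small subunit protein, had 30.6 ± 3.73 CPM after restraint and 38.4 ± 4.64 CPM without it (SD, n = 5 each; log2 fold change -0.33 ± 0.11, edgeR adjusted p = 0.222), and Ptcd3 46.8 ± 3.63 and 42.1 ± 3.01 CPM (0.15 ± 0.08). Translation factors of mitochondria had a median of 0.01 (5 of 13 negative). Of them the initiation factor gene Mtif2 stood at 0.23 ± 0.09, without overlap of the groups, and the elongation factor gene Tsfm at -0.35 ± 0.13, with overlap. Factors of mitoribosome assembly and rRNA modification had a median of -0.02 (15 of 23 negative), with Rcc1l at -0.34 ± 0.12 and the rRNA methyltransferase gene Mrm2 at -0.26 ± 0.10. Mitochondrial aminoacyl-tRNA synthetases, which charge the tRNAs, had a median of -0.05 (9 of 17 negative). Yars2, the tyrosyl-tRNA synthetase gene, had 15.1 to 18.9 CPM after restraint and 20.8 to 25.8 CPM in controls, and the groups did not overlap (-0.34 ± 0.10, edgeR adjusted p = 0.177), while Vars2 stood at 0.31 ± 0.11. Hars2 did not overlap either, with 17.6 to 21.1 CPM after restraint and 21.5 to 24.1 CPM in controls (-0.25 ± 0.09, edgeR adjusted p = 0.263).

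Of 18 listed genes for the transcription or replication of mitochondrial DNA or the stability of its RNA, 16 were tested. They had a median of 0.00 (8 of 16 negative). The replication and maintenance genes among them are Polg, Polg2, Twnk, Ssbp1 and Mgme1. Tfb2m, a transcription initiation factor of mitochondria, had 24.7 to 31.7 CPM after restraint and 18.2 to 24.3 CPM in controls, without overlap (0.34 ± 0.10, edgeR adjusted p = 0.189). Trmt10c, a subunit of mitochondrial RNase P, stood at 0.29 ± 0.09, also without overlap. A list of 15 genes joined regulators of nuclear mitochondrial genes with the mitochondrial chaperonin and protease genes Hspd1, Hspe1, Lonp1 and Clpp. Its median was 0.06 (6 of 15 negative). Of the regulators, Yy1 stood at 67.0 ± 3.78 CPM after restraint and 78.0 ± 7.69 CPM in controls (-0.22 ± 0.08, edgeR adjusted p = 0.293). The genes of the mitochondrial genome had a median of 0.12 (4 of 13 negative). The 4 negative genes, mt-Co2, mt-Co3, mt-Atp6 and mt-Nd3, had group means of only 1.65 to 3.44 CPM. The 9 positive genes had group means of 51.4 CPM or more. The 13 genes include mt-Rnr1 and mt-Rnr2, the rRNAs of the mitoribosome, at 0.21 ± 0.16 and 0.12 ± 0.12. Of the mRNAs that the mitoribosome translates, mt-Nd1 stood at 347 ± 49.3 CPM after restraint and 307 ± 28.6 CPM in controls (0.17 ± 0.10), and mt-Co1 at 724 ± 106 and 646 ± 52.2 CPM (0.17 ± 0.10). How RNA of the mitochondrial genome came to be in this ribosome-bound RNA was not tested. Its counts are not a measure of translation by the mitoribosome.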

How the data were processed

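The deposited table holds whole-number counts per gene and library, made by the authors with featureCounts 2.0.3 on exons of GENCODE M30 (an annotation of GRCm39), per the file headers. The recorded options include paired-end input and no strand, pair counting or multi-mapping option, so mates were counted singly, strands were not told apart and multi-mapped reads were left out. Trimmomatic, STAR, FastQC and mm10 are named in the submitters' processing notes. Symbols came from a table of mouse gene names by identifier (52073 of 56691 genes). Genes were filtered with filterByExpr (minimum 10, total 15), which kept 18440 and all 77 members, and fitted with edgeR 4.0.16 (TMM, glmQLFit, group as the only term; R 4.3.3), with Benjamini-Hochberg adjustment over all genes. The standard error is the log2 fold change over the root of the F statistic. The log2 CPM used a prior count of 2. Length and GC trends were removed by lowess (span 0.3), and the GC fit was added after seeing the data. Promoter windows are RefSeq's. Alternatives were other scalings, filters, tests (DESeq2 1.42.0, limma 3.58.1), a block, halved counts and leaving out each library. The test was tested on simulated data. Named members were the 6 lower and 4 higher with the smallest p, the 3 highest and 3 lowest levels, the shortest, the longest and 12 by role, and up to 3 genes per list. Members, lists and rules were chosen with earlier results of these data known.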

Additional observations from a re-analysis of the deposited data

Results flagged for a closer look

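In 70 groups of 5 values checked for a library far from the rest (23 named members and 12 library summaries, in each of the 2 groups), 3 were marked; chance marks about 1 in 20. Mrps16 stood at 39.7 CPM in restraint 5, against 26.8 to 30.3 CPM in restraint 1 to 4. Mrps30 stood at 25 CPM in restraint 4, against 29.1 to 30.3 CPM in the others of its group, and at 17.4 CPM in control 2, against 25.5 to 27.7 CPM in the other controls. Restraint 4 and control 2 are also among the 3 libraries with the lowest member level.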

How the results depend on the processing

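No member was called under any alternative except with a filter of at least 1 count (4 lower: Mrps14, Mrps36, Mrpl27 and Mrpl52) and without restraint 5 (2 lower; range over libraries left out 0 to 2). With that filter 302 genes were called over a wider set than the 18440 of the fit reported. The wider set holds at least the 24513 genes with a count in control 2. Over all genes, 4 were called in the fit reported, 17 with library size only, 302 with the filter of at least 1 count, 302 with DESeq2, 87 with limma-voom and quality weights, 68 with the length trend removed, 0 with robust estimation and 0 to 92 when a library was left out. The replicate block called 0 genes, also with the length trend removed (0), and 0 members. Same-numbered libraries had correlations of -0.164 to 0.0270 over all genes tested. These values show no likeness by number, but they cannot tell whether same-numbered samples were handled together. The members' median ran from -0.12 (without restraint 2) to -0.03 (without restraint 4) when a library was left out, the large subunit's from -0.12 to -0.01 and the small subunit's from -0.10 to -0.02. List medians ran from -0.0013 to 0.075 for translation factors and from -0.0899 to 0.00638 for synthetases. For the list of regulators with chaperonin and protease genes they ran from 0.0069 to 0.0791. They ran from 0.0229 to 0.179 for the mitochondrial genome and from -0.0686 to -0.00525 for assembly factors. For mitochondrial DNA transcription and replication they ran from -0.0338 to 0.0413, and for the subunits with other names from -0.154 to -0.0557. Signs turned for Mrpl34 (0.0012 with RLE, 0.00117 with DESeq2, 0.0084 with limma-voom, 0.0108 with quality weights, 0.00602 with the block, 0.21 with length removed, 0.22 with both), Mrpl41 (0.12 with length removed, 0.13 with the block too) and Mrps12 (0.0626 and 0.0655), and on leaving out libraries for these (-0.0719 to 0.11, -0.10 to 0.0527, -0.13 to 0.0151), Mrpl12 (-0.0379 to 0.12) and Mrps18a (-0.11 to 0.0544). The cause was not tested.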

Other observations

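Lars2, the mitochondrial leucyl-tRNA synthetase gene, had the highest standard error of the 17 synthetases, 0.45, with 60.6 to 472 CPM after restraint and 112 to 390 CPM in controls (log2 fold change -0.36).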
